A study of Mus musculus with 4 samples.

Results

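Signals of a set of fetal growth genes were described in basal epidermal cells of mouse embryos with and without serum response factor, the transcription factor encoded by Srf. The set lists 8 genes: the chromatin proteins Hmga1 and Hmga2, the RNA-binding proteins Igf2bp1, Igf2bp2, Igf2bp3 and Lin28b, the growth factor Igf2 and the noncoding RNA H19. Every probe set with one of these names as its platform gene symbol was taken, which gave 18 of the 45037 probe sets that are not controls. Of these, 17 are named for a single gene: 4 for Hmga2, 4 for Igf2bp1, 6 for Igf2bp3, 1 for Lin28b and 2 for Igf2. The remaining probe set lists H19 together with Mir675, so its values are given for the probe set and assigned to neither gene. Hmga1 and Igf2bp2 are named by 0 probe sets of the annotation used here, so they have no values. The genes were chosen by results of the same contrast, cKO against het on these arrays, so the differences between the genotypes are given for these genes as a description and without a test.

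The cKO embryos carried SRF fl/fl, ROSA26 YFP fl/fl and K14-Cre. The het embryos carried SRF fl/+ with the same reporter and Cre, and the submitters' design text calls them WT, although 1 of their Srf alleles was floxed too. All embryos were at E16.5, and live single cells were sorted on α6 integrin and YFP. K14-Cre acts in basal keratinocytes and their descendants, and YFP marks the cells in which Cre was active. Each group had 2 arrays. The titles Ko_1210 and het_1210 end in the same number and are called pair A here, and KO_1261 and het_1261 are called pair B. No label says what the title numbers mark or whether embryos were pooled.

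HMGA proteins bind the minor groove of AT-rich DNA and are abundant in embryonic and proliferating cells. IGF2BP proteins bind messenger RNAs, among them that of Igf2, and control their stability, transport and translation, and in most tissues Igf2bp1 and Igf2bp3 are largely fetal. Lin28b binds the precursors of let-7 microRNAs and blocks their maturation, and mature let-7 represses Hmga2, the Igf2bp genes and Lin28b itself. Igf2 and H19 are neighbouring imprinted genes, expressed from the paternal and the maternal allele, and H19 is the host transcript of Mir675. Lin28b, let-7 and Hmga2 are known for timing fetal growth in several mouse tissues.

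The let-7 microRNAs are shown because they connect the members, although the arrays did not measure them. RefSeq (GRCm38.p6) lists 11 mature let-7 family members of mouse, counting miR-98 and leaving out the products named 3p, whose seeds differ. Of the 11, 10 share the seed of let-7a, which lies at bases 2 to 8 and is in capitals here. The other, let-7j, has the seed GAGGUAU. The microRNAs of Mir675 are shown because their locus shares a probe set with H19, and their seeds differ from that of let-7.
let-7a (chr13:48538239-48538260, minus strand): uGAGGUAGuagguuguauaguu
let-7g (chr9:106178846-106178867, plus strand): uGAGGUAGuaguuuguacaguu
miR-98 (chrX:151913229-151913250, plus strand): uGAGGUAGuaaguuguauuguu
miR-675-5p (chr7:142577112-142577133, minus strand): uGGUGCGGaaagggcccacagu
miR-675-3p (chr7:142577078-142577099, minus strand): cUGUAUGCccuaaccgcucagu

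Promoter windows of 250 bases before to 50 after the start were matched in RefSeq for 6 of the 8 genes, in 10 windows. They were searched on both strands for the GC box GGGCGG, to which Sp1 family factors bind, and for the CArG box, to which SRF binds; the motifs do not overlap each other in the searched letters. A GC box was found in 6 of the 10 windows and in 35.7% of all 32851 promoter windows. The 6 include Hmga1 windows that overlap each other and so share sites, and a window of Igf2bp2. These genes have no values here, so the count is no excess for the measured members. A CArG box was found in 1 of the 10 windows and in 1.63% of all windows. The 250 bases before the Hmga2 start are shown because Hmga2 is the member with the widest difference between the genotypes, and they hold 1 GC box, in capitals and read on the other strand, and 70.8% pyrimidines. The window with a CArG box was 1 of the 4 Igf2 windows, and the match, in capitals, is shown with 20 bases on each side. These matches are letters in a window, with no measure of binding here.
Hmga2 (chr10:120476470-120476719, minus strand, GRCm38.p6): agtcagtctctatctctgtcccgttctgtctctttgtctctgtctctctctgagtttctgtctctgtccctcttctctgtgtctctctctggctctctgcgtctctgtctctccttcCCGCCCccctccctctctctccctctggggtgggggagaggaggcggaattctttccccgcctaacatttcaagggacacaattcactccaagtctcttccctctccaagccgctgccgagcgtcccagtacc
Igf2 (chr7:142661397-142661446, minus strand, GRCm38.p6): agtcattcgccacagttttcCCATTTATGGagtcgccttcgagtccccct

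The values are MAS5 intensities, 1 per probe set and array, that the authors scaled to a common mean, so only changes relative to the rest of the array are seen. Differences are given on the scale of log2(signal + 1), and probe sets with a mean above the median, a signal of 65.9, were tested. A call is a Benjamini-Hochberg adjusted p below 0.05 in limma. No label says how the arrays relate to animals, so p-values measure only the spread between these arrays. Srf had signals of 47.9 and 80.4 in cKO and of 834 and 1108 in het. The arrays also differed by pair. Xist had signals of 22802 (cKO) and 14338 (het) in pair B, against 115 (cKO) and 62.6 (het) in pair A, while the Y-linked Eif2s3y was at 3.01 in the cKO array of pair B and between 834 and 1485 on the other arrays. RNA of female embryos was thus present on 1 array of each group and near absent from the other, so the arrays of a group did not hold the same animals. Poly-A controls added to the RNA were 2.80-fold higher in pair A than in pair B in cKO and 2.45-fold higher in het (medians of 12 probe sets). The members' differences are given within a pair, where 1 cKO array is set against 1 het array and no test exists. A pair does not remove the sex of the embryos. In pair B the het array held RNA of both sexes (Xist 14338, Eif2s3y 834), while Eif2s3y was at 3.01 in cKO. The part of sex in the differences within a pair was not tested. In bulk samples fewer cells of a type and less RNA per cell cannot be told apart.

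Of the chromatin proteins, Hmga2 was higher in cKO within both pairs at each of its 3 tested probe sets. The brightest, 1450780_s_at, had signals of 1133 and 1845 in cKO (pairs A and B), against 626 and 999 in het. Both cKO arrays lay above both het arrays, and the cKO to het ratio, taken on signal + 1, was 1.81 in pair A and 1.84 in pair B. This is a log2 difference of 0.87, with means of 1489 ± 503 in cKO and 813 ± 264 in het (SD, n = 2). A second probe set, 1450781_at, had signals of 274 and 606 in cKO, against 178 and 330 in het. It differed by 0.62 within pair A and by 0.88 within pair B. The third, 1422851_at, had 871 and 1551 in cKO, against 681 and 1066 in het. Its differences were 0.35 and 0.54, and here, as for 1450781_at, the cKO array of pair A lay below the het array of pair B, so the groups overlapped. The fourth probe set, 1446196_at, had 23.4 and 76.9 in cKO, against 52.6 and 79.1 in het. It averaged below the filter, was not tested and was lower in cKO within both pairs. Names that end in s_at mark probe sets whose probes can match several transcripts, so the brightest probe set may read more than Hmga2.

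**Figure D1:**
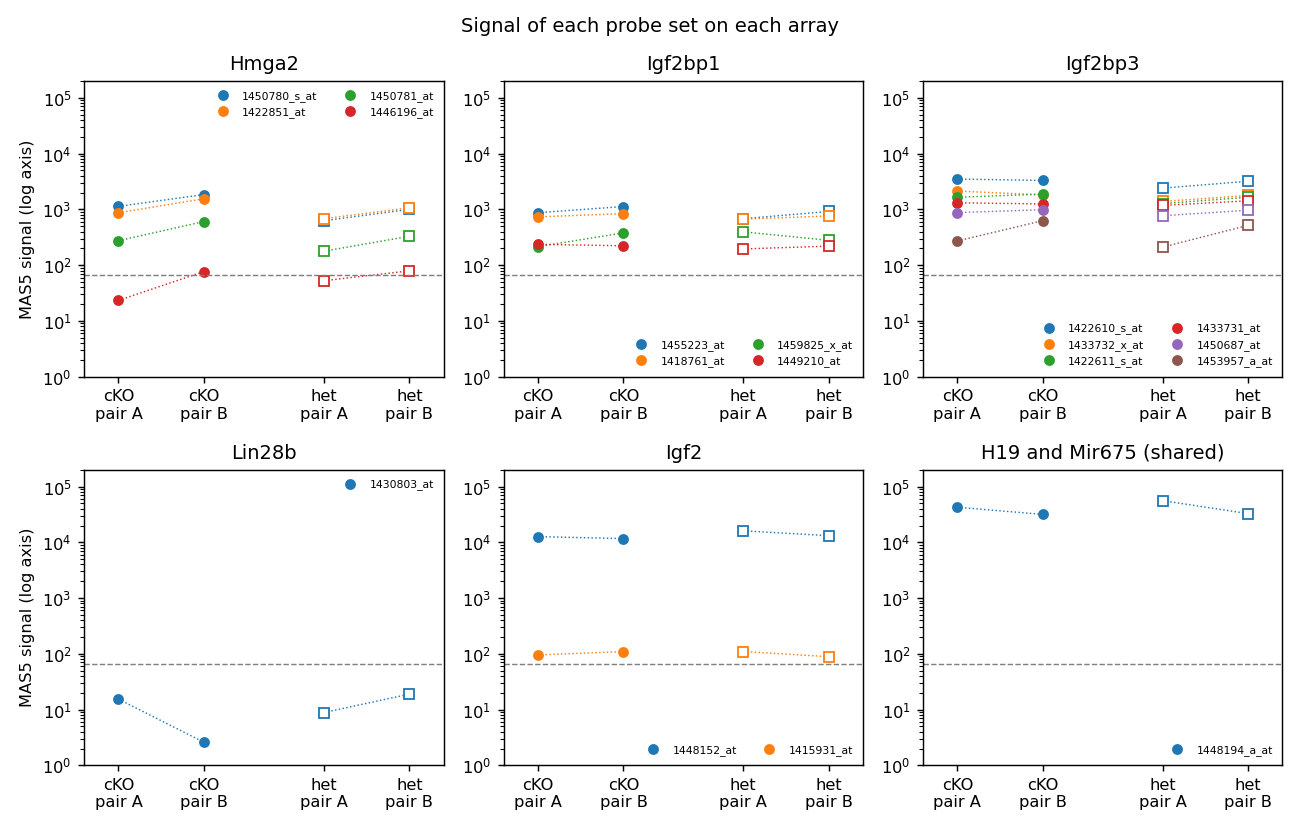
Signals of the 18 probe sets on the 4 arrays, 1 panel per gene, with MAS5 signal on a log axis. Filled circles are cKO and open squares het, dotted lines join the arrays of a group, and the dashed line is the filter signal of 65.9. The 3 upper Hmga2 probe sets are higher in cKO in the same pair, while Lin28b lies below the line on every array.

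The RNA-binding proteins Igf2bp1 and Igf2bp3 had smaller differences. The brightest Igf2bp1 probe set, 1455223_at, had signals of 872 and 1125 in cKO, against 681 and 917 in het, with differences of 0.36 in pair A and 0.29 in pair B. It was higher in cKO within both pairs, but the groups overlapped. At 1418761_at the signals were 734 and 838 in cKO, against 669 and 762 in het, and the differences were 0.13 within pair A and 0.14 within pair B. At 1449210_at they were 236 and 222 in cKO, against 195 and 220 in het, without overlap but with a difference of 0.02 within pair B. The last Igf2bp1 probe set, 1459825_x_at, went against the others in pair A, with signals of 215 and 379 in cKO, against 396 and 279 in het. Probe sets ending in x_at can cross-hybridise with other transcripts.

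For Igf2bp3, 5 of 6 probe sets were higher in cKO within both pairs, and the larger differences lay in pair A in all 5. The brightest, 1422610_s_at, had signals of 3495 and 3303 in cKO, against 2400 and 3199 in het. The groups did not overlap, and the difference was 0.54 in pair A and 0.05 in pair B. A like pattern was seen at 1433732_x_at, with 2134 and 1816 in cKO, against 1389 and 1776 in het, and differences of 0.62 and 0.03. At 1422611_s_at the signals were 1650 and 1877 in cKO, against 1267 and 1653 in het. At 1450687_at they were 876 and 987 in cKO, against 770 and 964 in het. The groups overlapped at both of these. At 1453957_a_at, with 271 and 629 in cKO, against 211 and 518 in het, the differences were 0.36 and 0.28, while the pairs stood further apart than the genotypes. The sixth, 1433731_at, had 1313 and 1250 in cKO, against 1178 and 1425 in het, and its mean difference of -0.02 turned to 0.11 when the arrays were centred on their medians. By the endings of their names, 1433732_x_at, 1422610_s_at and 1422611_s_at may also read other transcripts.

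Lin28b was not measured above the filter. Its probe set, 1430803_at, had signals of 15.4 and 2.59 in cKO, against 8.85 and 18.96 in het. These values have opposite order in the pairs and lie where MAS5 signals are imprecise, so no direction is given. Its paralog Lin28a, which acts on the same precursors, was also below the filter, with 26.1 and 16.8 in cKO, against 31.5 and 9.05 in het at its brighter probe set.

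Igf2, a growth factor that signals through the IGF1 receptor, was lower in cKO at its bright probe set. At 1448152_at the signals were 12646 and 11654 in cKO, against 16069 and 13132 in het. The groups did not overlap, the means were 12150 ± 702 in cKO and 14601 ± 2077 in het (SD, n = 2), and the log2 differences were -0.35 in pair A and -0.17 in pair B. The dim probe set, 1415931_at, had 95.7 and 110.1 in cKO, against 110.1 and 88.9 in het, with differences of opposite sign. The probe set that lists H19 and Mir675, 1448194_a_at, had 42508 and 31648 in cKO, against 55794 and 32655 in het. Its difference was -0.39 in pair A and -0.05 in pair B, and the groups overlapped. Median centring turned the value within pair B to 0.08.

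**Figure D2:**
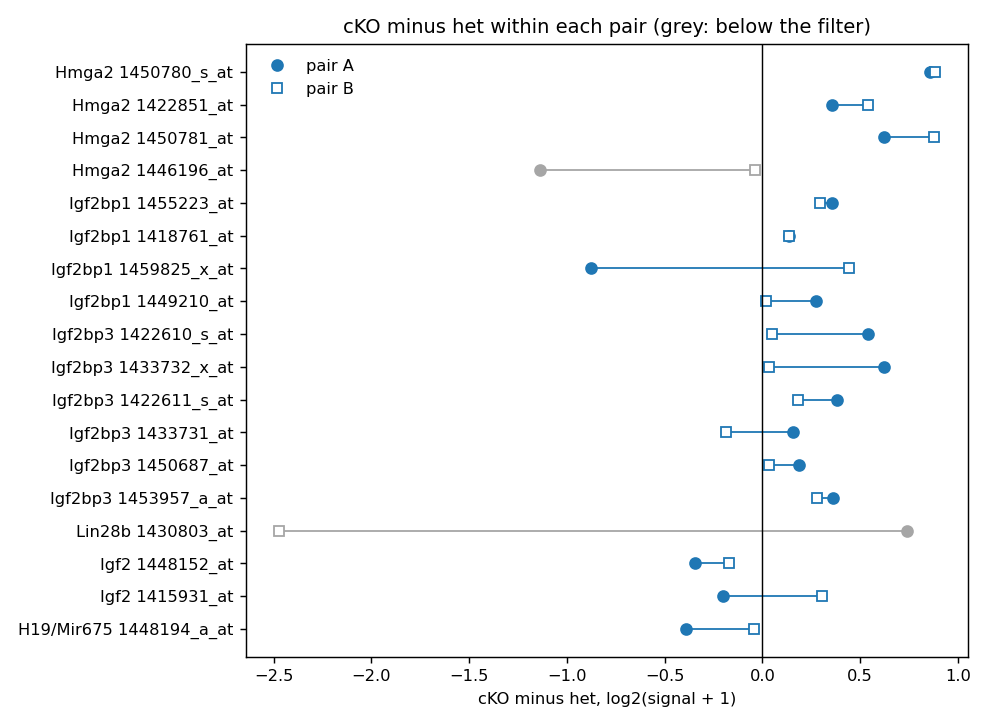
Difference cKO minus het on the log2(signal + 1) scale for each probe set, within pair A (filled circles) and within pair B (open squares), 1 array per group in each. Grey marks the 2 probe sets that were not tested. The Hmga2 probe sets at the top reach 0.88, Igf2bp3 differs more in pair A, and Igf2 and the H19/Mir675 probe set lie mostly below 0.

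In all, 16 of the 18 probe sets passed the filter. Of these, 11 were higher in cKO within both pairs, 2 were lower within both and 3 differed in sign. Among all 22518 tested probe sets 26.3% were higher within both pairs and 29.1% lower within both. Both cKO arrays lay above both het arrays at 4 of the 16, against 7.91% of all tested probe sets, and below them at 1, against 10.4%. At 1450780_s_at of Hmga2 the difference was 0.52 without the cKO array of pair B, 0.53 without the het array of pair A, 1.21 without the het array of pair B and 1.22 without the cKO array of pair A. The set was chosen with this contrast in view, and several probe sets read the same gene, so these counts are a description. Median centring, which put the median over all tested genes at 0.10 in place of -0.02, gave 11 probe sets higher within both pairs and raised that share among all tested probe sets to 44.5%.

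The difference between the pairs was not part of the choice, and it was tested with genotype as a term. Of the 16 probe sets, 4 were called higher and 1 lower in pair B than in pair A, against 34.6% of all tested probe sets called in either direction, so the share is near the background. Both arrays of pair B lay above both of pair A at 7 of the 16, and the share of all tested probe sets with that order also rounded to 34.6%. Hmga2 was higher in pair B at all 3 tested probe sets, by 0.69, 0.74 and 1.01 on the log2 scale (limma adjusted p = 0.00254, 0.0015 and 9.83e-04), and in both genotypes at each. Under median centring these became 0.44, 0.49 and 0.77 (adjusted p = 0.0459, 0.0301 and 0.0116). Igf2bp3 at 1453957_a_at was higher by 1.25 (adjusted p = 3.87e-05), with 1.21 in cKO and 1.29 in het, while its other 5 probe sets differed by 0.06 to 0.28 and were not called. The H19 and Mir675 probe set was lower in pair B by 0.60 (adjusted p = 1.87e-04), with -0.43 in cKO and -0.77 in het, but under quantile normalization its difference was -0.01 (adjusted p = 0.875). The Igf2bp1 probe sets, at 0.04 to 0.40, and the bright Igf2 probe set, at -0.20, were not called, although the Igf2 difference became -0.45 under median centring and passed (adjusted p = 0.00837) and turned to 0.09 under quantile normalization (adjusted p = 0.445). Signs of the uncalled Igf2bp1 and Igf2bp3 differences also depended on the scaling. The calls rest on a common variance, since 1 residual degree of freedom was left. In a fit without a variance trend, 1450781_at and 1453957_a_at still passed (adjusted p = 0.0383 and 0.0196), and the other 2 Hmga2 probe sets and the H19 and Mir675 probe set did not (0.0791, 0.0727 and 0.113). The poly-A controls and Xist given above moved with the pair, and their part in these differences was not tested.

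**Figure D3:**
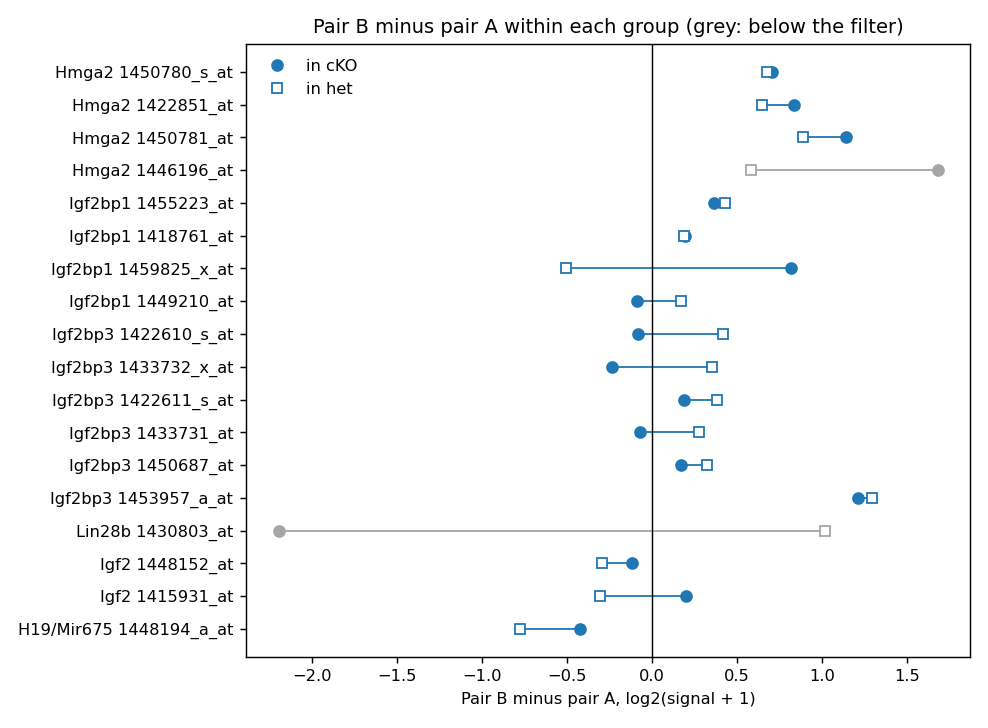
Difference of pair B minus pair A on the log2(signal + 1) scale for each probe set, in cKO (filled circles) and in het (open squares), 1 array per pair in each. Grey marks the 2 probe sets that were not tested. Hmga2 and 1453957_a_at of Igf2bp3 lie right of 0 in both genotypes, and the H19/Mir675 probe set lies left of 0 in both.

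The genes that work with these members were listed in 6 groups, and of 83 that were tested, 24 were higher in cKO within both pairs and 22 lower within both. That is 28.9% and 26.5%, against 24.4% and 31.6% of all 11053 tested genes. Without a block 0 of the 83 passed in limma, as did 0% of all genes, of which 66 had a raw p below 0.05. Srf itself, with a log2 difference of -3.93, was not called in that fit either. The absence of calls there therefore says little about the pathway genes. When the pair was added as a block, 2 of the 83 fell, Dlk1 and Actb, and 0 rose. In that fit 0.624% of all genes fell and 0.253% rose.

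Of 14 tested genes of the imprinted network that includes Igf2 and H19, only Dlk1 passed, and only with the block. Dlk1, a paternally expressed Notch-like protein of fetal tissues, had signals of 294 and 552 in cKO, against 620 and 811 in het. It fell by 0.82 ± 0.21 (SE), with -1.08 and -0.55 within the pairs (limma adjusted p = 0.0482). Both cKO arrays lay below both het arrays. The call ended with a robust variance prior (0.0714), without a variance trend (0.736) and under median centring (0.164). It held under quantile normalization (0.0247). Left out one at a time in the fit without a block, the cKO array of pair A gave -0.36 and the cKO array of pair B gave -1.27. The list's median was -0.06, against -0.02 over all tested genes.

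Of 14 tested IGF2BP partners and target transcripts, only Actb passed, again with the block. Actb, cytoplasmic β-actin, is a classic Igf2bp1 cargo and also an SRF target. Its signals were 20177 and 19786 in cKO, against 37974 and 25093 in het, and it fell by 0.63 ± 0.13 (SE; limma adjusted p = 0.00745), without overlap of the groups. Within the pairs it was -0.91 and -0.34, and without the het array of pair A it was -0.33. The call ended without a variance trend (0.736) and under median centring (0.122). It held with a robust variance prior (0.0164) and under quantile normalization (3.59e-07). These values are for the brightest Actb probe set. The other Actb probe set had 19643 and 16319 in cKO, against 33876 and 27576 in het. It differed by -0.79 within pair A and by -0.76 within pair B (limma adjusted p with the block = 3.83e-04). The list's median was -0.004, with 7 genes higher and 7 lower on average.

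In the let-7 pathway lists, called on the brightest probe set of each gene, 0 genes passed with or without the block. Of 12 tested LIN28 and let-7 processing genes 4 were higher and 1 lower within both pairs, with a median of 0.17 (0.29 within pair A and -0.01 within pair B). The brightest were Ddx5, an RNA helicase of the Microprocessor, at -0.004 ± 0.13, and Ddx17, its paralog, at -0.02 ± 0.13 (SE). Of 15 other let-7 target genes 5 were higher and 3 lower within both pairs, with a median of 0.12 (0.29 and -0.05). The brightest of them, the cyclin Ccnd2, had 25844 and 22479 in cKO, against 16673 and 18338 in het, without overlap. Its difference of 0.46 ± 0.13 did not pass with the block (adjusted p = 0.0793), but it passed when the block was joined by median centring (0.0448) or quantile normalization (3.55e-07). Rrm2, a subunit of ribonucleotide reductase, differed by 0.16 ± 0.14 (adjusted p = 0.803).

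Of 17 tested IGF signalling genes 6 were higher and 5 lower within both pairs, and the median was -0.06. Under median centring the medians of this list and of the imprinted network turned to 0.06, that of the IGF2BP list to 0.12 and that of the HMG and Ink4-Arf list to 0.11. Igfbp2, a secreted IGF-binding protein, had 12121 and 6809 in cKO, against 16521 and 8798 in het. Its difference of -0.41 ± 0.13 did not pass with the block (adjusted p = 0.176), while the pairs differed by -0.87 (adjusted p = 2.56e-06). It was 0.01 without the cKO array of pair B and 0.05 without the het array of pair A. Irs1, an adaptor of the insulin and IGF1 receptors, had 6576 and 6488 in cKO, against 4162 and 6150 in het. Its difference was 0.37 ± 0.15 (adjusted p = 0.376), with 0.66 within pair A and 0.08 within pair B.

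The HMG and Ink4-Arf list holds other HMG proteins, the cell-cycle inhibitor genes Cdkn1a, Cdkn1b, Cdkn2a and Cdkn2b, and the cyclin Ccna2. Of its 11 tested genes 2 were higher and 5 lower within both pairs, and the median was -0.01. Cdkn2b, a CDK inhibitor encoded beside Cdkn2a, was the only tested pathway gene beyond 1.5-fold within both pairs. It had 73.1 and 113.9 in cKO, against 188 and 187 in het, a difference of -1.03 ± 0.35 that did not pass with the block (adjusted p = 0.235). Cdkn2a itself lay below the filter. Hmgb2, at -0.18 ± 0.13, and Hmgn1, at -0.15 ± 0.12, architectural chromatin proteins of other HMG families, did not pass either.

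**Figure D4:**
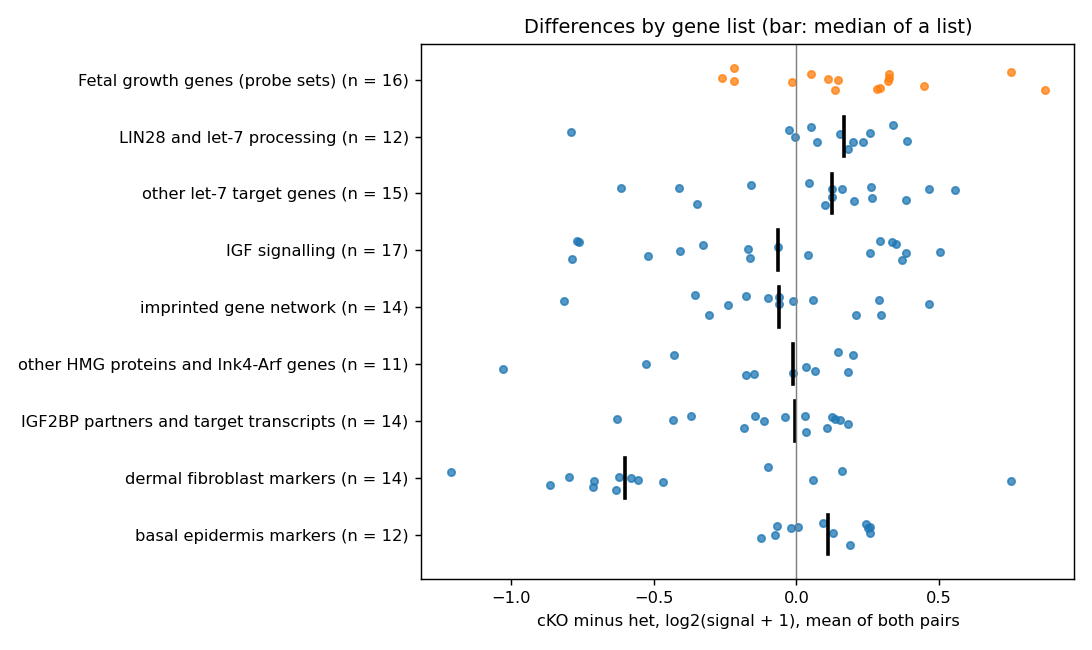
Difference cKO minus het on the log2(signal + 1) scale, averaged over both pairs, for the 16 tested member probe sets (orange) and for the tested genes of each list (blue), with a black bar at the list's median. The 6 pathway lists have medians between -0.06 and 0.17, and the dermal fibroblast markers lie lower, at -0.60.

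The cells carried the defining markers of basal epidermis. Krt5, a basal keratin, had signals of 50933 and 35314 in cKO, against 57958 and 36834 in het, and Krt14, its partner, had 53068 and 36033 in cKO, against 59598 and 35520 in het. Neither passed the test between the genotypes, and the median of the 12 tested basal markers was 0.11. Markers of dermal fibroblasts, whose cells the α6 integrin and YFP gates should leave out, were present as well. Of 14 tested, 10 were lower in cKO within both pairs, against 31.6% of all tested genes. Pdgfra and Col5a1, 2 of the 14, were higher within both, against 24.4%. The median was -0.60 (-0.92 within pair A and -0.21 within pair B). The summed signal of the listed fibroblast markers was 57934 and 58651 in cKO, against 71937 and 63612 in het.

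With the block 3 of the fibroblast markers fell, as did 0.624% of all tested genes. Col3a1, a fibrillar collagen chain, fell by 0.62 (limma adjusted p = 0.0301), Vim, the intermediate filament protein of mesenchymal cells, by 0.71 (0.0249), and Twist2, a transcription factor of dermal fibroblasts, by 1.21 (0.0451). Each differed more within pair A than within pair B, with -0.98 and -0.26 for Col3a1, -1.20 and -0.22 for Vim and -1.96 and -0.46 for Twist2. Without the het array of pair A the differences were -0.41 for Col3a1 and -0.36 for Vim, and without the cKO array of pair A that of Twist2 was -0.69. Dcn, a matrix proteoglycan, had 21841 and 18828 in cKO, against 19907 and 19073 in het, and did not pass. Medians were also negative for 5 tested endothelial (-0.35), 3 immune (-0.44) and 5 melanocyte markers (-0.41). Within pairs A and B they were -0.77 and 0.03 (endothelial), -0.80 and -0.77 (immune) and -0.90 and -0.05 (melanocyte). The median of 3 tested skeletal muscle markers was -0.03, and the 1 tested nerve marker was at 0.002. Of these only Laptm5, a lysosomal protein of blood cells, passed, and it fell by 1.47 (0.0367), with -2.17 within pair A and -0.77 within pair B. These 4 calls were lost with a robust variance prior, without a variance trend and under median centring. Under quantile normalization with the block, Col3a1 (limma adjusted p = 5.51e-04), Vim (8.67e-04) and Twist2 (0.0154) still passed. Some markers of these lists lay below the filter signal on every array, so a signal above 0 does not show their presence. Pecam1, an endothelial marker, had 11.4 and 10.5 in cKO, against 44.0 and 34.6 in het. Dlk1, Igf2 and H19 are also expressed in fetal mesenchyme. The bright probe sets of Dlk1 and Igf2 and the H19 and Mir675 probe set were lower in cKO on average, as were 11 of the 14 fibroblast markers. The other 3 markers, Pdgfra, Col5a1 and Dcn, were higher on average. So were the brightest probe sets of Hmga2 (0.87), Igf2bp1 (0.33) and Igf2bp3 (0.29). The part of the cell types of these lists in the signals of the members was not tested.

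The genes most like Hmga2 over the 4 arrays were sought by the Euclidean distance between log2 values centred on each gene's mean. The nearest among all tested genes were Pdgfra, a growth factor receptor of mesenchymal cells, at a distance of 0.16, C2cd4b at 0.18 and Zfp365 at 0.19. Pdgfra had 91.2 and 154.8 in cKO, against 58.3 and 84.4 in het. It is also in the fibroblast list, whose median was -0.60, and was among the 2 markers there that were higher in cKO within both pairs. C2cd4b had 141 and 251 in cKO, against 92.5 and 138 in het, and Zfp365 had 72.9 and 120 in cKO, against 46.6 and 64.5 in het. Pdgfra lay below the filter signal on 1 het array and Zfp365 on both, and the likeness is a description over 4 arrays.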

How the data were processed

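Total RNA of sorted basal epidermal cells was measured on 4 one-colour arrays after Trizol extraction and biotin labelling by 3' in vitro transcription, per the labels' protocols. The authors deposited linear intensity values of 45101 probe sets, for which the submitters' processing notes name MAS5 as the authors' tool. The mean without the 2% of probe sets at each end was 500 on every array, so the arrays had been scaled to it. Scanner files were not used here.

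The 64 control probe sets were left out. The platform annotation, with symbols updated by gene identifier, named the genes: 34945 probe sets had 1 symbol, 932 several and 9160 none. Values were taken as log2(signal + 1), and the 22518 probe sets with a mean above the median (65.9) were fitted with limma 3.58.1 (trend) in R 4.3.3, without a block and with the title number (the pair) as a block. Arrays of the same number deviated together (r = 0.755), as a description with 2 pairs, and residual degrees of freedom were 2 and 1. p-values were adjusted once, over all tested probe sets. Each of the 11053 tested genes took the adjusted p-value of its brightest probe set. The number of arrays limits the precision. The script was tested on simulated data.

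The members and lists were chosen with earlier results of these data known. Named list genes were the brightest of each list and those past the threshold or beyond 1.5-fold within both pairs. The named likeness genes were the nearest in distance to Hmga2. Alternatives were a pseudocount of 16, median centring, quantile normalization, no filter, no variance trend, a robust prior and each array left out. Figures were drawn with matplotlib 3.10.9.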

Additional observations from a re-analysis of the deposited data

How the results depend on the processing

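The direction of the mean cKO to het difference at the brightest probe set of Hmga2, Igf2bp1, Igf2bp3 and Igf2 held under each alternative run. Averaged over all 4 of its probe sets, Hmga2 differed by 0.37, against 0.87 at the brightest, in a mean that takes in 0.45, 0.75 and, for the dim 1446196_at, -0.59. With 1 array left out, ranges were 0.52 to 1.22 for Hmga2, 0.11 to 0.54 for Igf2bp1, 0.09 to 0.50 for Igf2bp3, -0.40 to -0.11 for Igf2, -1.96 to 0.23 for Lin28b and -0.61 to 0.17 for the H19 and Mir675 probe set. Leaving out 1 array for the difference between pairs was not run, since 0 residual degrees of freedom would be left. The fit with the replicate number (the pair) as a block called 97 genes between cKO and het, 2 of them in the pathway lists, against 0 and 0 without the block. Joined to the block, a robust prior gave 50 genes and 1 pathway gene (Actb), median centring 52 and 1 (Ccnd2), quantile normalization 151 and 5 (Actb, Ccnd2, Dlk1, Igfbp2 and Igfbp3), and no variance trend 0 and 0. The cause of these shifts was not tested. Under median centring with the block 30 genes were higher and 22 lower, against 28 higher and 69 lower. Without the block, leaving out 1 array gave 0 to 2 genes, 2 without the cKO array of pair A and 1 without that of pair B. Between the pairs 3533 genes were called, and 612 without a variance trend. Dim probe sets, such as those of Lin28b, give no usable direction. Differences that did not pass also changed sign. Between the pairs, median centring gave -0.056, -0.090 and -0.20 at 1418761_at, 1459825_x_at and 1449210_at of Igf2bp1 and -0.079, -0.18 and -0.14 at 1422610_s_at, 1433732_x_at and 1433731_at of Igf2bp3. Quantile normalization gave -0.10 and -0.28 at 1459825_x_at and 1449210_at, and 0.089 for Igf2. Between cKO and het, with or without the block, median centring and quantile normalization gave 0.118 and 0.064 for Ddx5, 0.097 and 0.020 for Ddx17, 0.049 and 0.037 for Krt14 and 0.092 and 0.0045 for Actc1, a muscle marker. With a pseudocount of 16 Ngfr, a nerve marker, was at -0.0027. With 1 array left out, differences crossed 0 for Ddx5 (-0.20 to 0.192), Ddx17 (-0.174 to 0.124), Igfbp2 (-0.863 to 0.046), Hmgn1 (-0.45 to 0.151), Krt14 (-0.447 to 0.2999) and Krt5 (-0.451 to 0.203). They also did for the endothelial markers Egfl7 (-0.7003 to 0.065) and Esam (-0.798 to 0.105), the melanocyte marker Pmel (-1.08 to 0.69), the muscle markers Actc1 (-0.075 to 0.016) and Acta1 (-0.429 to 0.691) and Ngfr (-0.454 to 0.458).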

Other observations

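Ccnd2, a D-type cyclin that drives entry into the cell cycle and a let-7 target, was read by 7 probe sets, and all 7 were higher in cKO within both pairs. Both cKO arrays lay above both het arrays at 6 of them, against 7.91% of all tested probe sets. With the pair as a block 3 were called, and 0.253% of all tested genes were called higher in that fit. At 1416122_at the Ccnd2 signals were 25018 and 20792 in cKO, against 17761 and 14928 in het (difference 0.49, limma adjusted p = 0.0485). At 1416124_at the Ccnd2 signals were 1932 and 1363 in cKO, against 1235 and 800 in het (difference 0.71, adjusted p = 0.0343). These probe sets read the same transcripts and were described after their values were seen.

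The IGF-binding proteins, secreted carriers that control how much IGF reaches its receptor, were also looked at after their values were seen, and none was called with the block on the values as the authors scaled them. Igfbp3 had 436 and 365 in cKO, against 865 and 547 in het, without overlap (difference -0.79, limma adjusted p = 0.0613). Igfbp6 had 66.0 and 55.3 in cKO, against 134 and 80.5 in het, and Igfbp7 had 223 and 251 in cKO, against 402 and 287 in het. Igfbp5 differed by 0.04, with 2886 and 2122 in cKO, against 2410 and 2403 in het. The receptor Igf1r had 820 and 1214 in cKO, against 464 and 1068 in het, and the groups overlapped.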
